A study of Homo sapiens with 12 samples.

Results

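The genes described here are 30 named target genes of the transcription factor p53, with the BCL2 family and CDKN1A left out, and they were matched by symbol to the Ensembl identifiers of the count table. All 30 were found among 62702 entries with counts, and all 30 passed the filter on low counts that left 17677 genes for testing. The RNA came from MCF10AT, an established human breast epithelial line derived from MCF10A by transformation with oncogenic HRAS. Every group carried the long form of the human prolactin receptor together with the intermediate form, and the study compared an intermediate form with its I-tail (hPRLrL/hPRLrI) with the I-tail deleted form. Cells of all 4 groups were kept without serum for 24 h, and 1 group of each genotype was then given prolactin (PRL) at 250 ng/ml for 2 h. Each group (intact untreated, intact PRL, deleted untreated and deleted PRL) held 3 libraries. How the receptor forms were expressed or edited, and whether a genotype is 1 clone, the labels do not say. The comparisons ask how the p53 targets stood 2 h after PRL, and whether that differed with the I-tail.

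p53 is held at a low level in unstressed cells, chiefly because MDM2, itself a p53 target, marks it for degradation. Damage to DNA and other stresses release p53, which then binds paired 10-base elements and raises genes of growth arrest, apoptosis, DNA repair and metabolism. Cells of the MCF10A lineage have lost CDKN2A, whose ARF product restrains MDM2. CDKN2A had 0 counts in all 12 libraries. TP63, the family member of stratified and basal epithelium, stands in the set beside the targets and is described last.

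Total counts ran from 36120808 to 57324865 per library, and the members held 0.129 to 0.196% of them. Nothing in the labels says that the 3 libraries of a group came from separate cultures beyond calling them biological replicates, so the p-values measure the spread between these libraries. The sample titles are numbered through, so that each consecutive set of 4 titles (here a title run) holds 1 library of each group, and replicate n of a group is from run n. The labels do not say what a run was. Intact PRL replicate 2 had the fewest detected genes, 19073, with intact untreated replicate 2 next at 19905 and deleted PRL replicate 2 at 21089. The other libraries reached up to 25200. Levels are given as CPM, read counts relative to the library total after composition scaling. Summed epithelial markers reached 1836 to 10513 CPM. Fibroblast markers summed to 423 to 617 CPM, mostly from DCN and COL1A1. PDGFRB read 11.2 to 27.4 CPM and COL3A1 0.0896 to 2.63 CPM. COL1A2 was at most at 0.676 CPM, and LUM and PDGFRA at most at 0.244 CPM. Endothelial markers summed to 1.22 to 3.30 CPM. Leukocyte markers summed to 11.2 to 30.9 CPM, almost all from CD14, with PTPRC at most at 0.0227 CPM. The leukocyte sum was 13.2 to 20.95 CPM in intact untreated and 21.1 to 22.1 CPM in intact PRL libraries, and 11.2 to 15.1 CPM in deleted untreated and 18.2 to 30.9 CPM in deleted PRL libraries. It was thus higher with PRL without overlap in both genotypes, and its part in the PRL differences below was not tested.

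RefSeq promoter windows (GRCh38.p14, 250 bases before to 50 after a transcript start) were at hand for 23 of the 30 members, as 33 windows. A p53 element was searched as 2 copies of the p53 decamer consensus, which reads the same on both strands, 0 to 13 bases apart, with at most 2 mismatches over the 20 bases. Such an element stood in 27.3% of the member windows, from AEN, CCNG1, DDB2, FAS, FDXR and MDM2, and in 7.82% of all 35116 windows. Overlapping windows of CCNG1, and of MDM2, held the same element and were each counted. The members were listed as p53 targets, so these shares describe the list and are no test of it. A perfect copy of 1 decamer stood in 15.2% of member windows, from AEN, DDB2, FAS, FDXR and PLK2, and in 6.63% of all windows. The letters TTCNNNGAA, the form bound by the STAT factors that prolactin receptors activate, occurred in the windows of DDB2 and SUSD6 and in 7.66% of all windows. These searches overlap in places, since a perfect decamer can be part of an element. The 4 windows below are printed because they show the range among the members: an element without mismatch, the internal MDM2 promoter, and the gene with the clearest PRL difference, which held only a lone decamer. Capitals mark the element or decamer.
DDB2: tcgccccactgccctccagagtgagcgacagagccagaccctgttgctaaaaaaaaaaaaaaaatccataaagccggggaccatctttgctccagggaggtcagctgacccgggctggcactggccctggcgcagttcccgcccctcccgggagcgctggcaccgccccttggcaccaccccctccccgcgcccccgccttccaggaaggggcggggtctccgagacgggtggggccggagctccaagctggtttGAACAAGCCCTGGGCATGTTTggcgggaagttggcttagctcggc
MDM2: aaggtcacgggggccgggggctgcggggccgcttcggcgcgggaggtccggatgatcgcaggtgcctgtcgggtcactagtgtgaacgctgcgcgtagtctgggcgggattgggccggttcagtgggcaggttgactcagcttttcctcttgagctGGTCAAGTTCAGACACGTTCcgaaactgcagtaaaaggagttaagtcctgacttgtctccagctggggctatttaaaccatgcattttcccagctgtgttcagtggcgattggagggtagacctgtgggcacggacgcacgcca
AEN: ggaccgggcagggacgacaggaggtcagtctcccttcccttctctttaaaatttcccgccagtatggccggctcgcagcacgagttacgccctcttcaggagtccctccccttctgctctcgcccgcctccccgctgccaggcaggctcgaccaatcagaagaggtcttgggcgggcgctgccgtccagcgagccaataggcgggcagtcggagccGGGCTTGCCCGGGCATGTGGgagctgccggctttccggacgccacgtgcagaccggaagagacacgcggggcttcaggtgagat
PLK2: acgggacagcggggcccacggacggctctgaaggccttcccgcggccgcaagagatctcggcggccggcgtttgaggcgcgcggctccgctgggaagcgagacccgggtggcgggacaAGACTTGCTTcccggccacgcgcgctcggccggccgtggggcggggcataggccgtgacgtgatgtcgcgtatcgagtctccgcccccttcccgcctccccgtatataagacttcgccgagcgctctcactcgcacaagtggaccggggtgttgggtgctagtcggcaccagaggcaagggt

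The DDB2 window, chr11:47214724-47215023 on the plus strand, is 1 of 2 for that gene and lies inside the annotated gene (GENCODE 29, chromosome 11, 47214465 to 47239240). Its element has no mismatch, with 1 base between the decamers, and begins 5 bases after the start. Only 10 of all windows, 0.0285%, held an element without mismatch. The MDM2 window, chr12:68808767-68809066 on the plus strand, lies inside the MDM2 gene (68808176 to 68850686), and its element begins 94 bases before the start with 2 mismatches. The AEN window, chr15:88621090-88621389 on the plus strand, spans the annotated gene start at 88621296, and its element with 2 mismatches begins 34 bases before the RefSeq start. The PLK2 window, chr5:58460037-58460336 on the minus strand, spans the annotated upper end of the gene (58453982 to 58460260), and its decamer begins 132 bases before the start. A match describes letters only, and no match says nothing of p53 binding elsewhere in a gene.

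The 30 genes were expressed over a wide range, which is given as CPM per kilobase of annotated exon so that genes can be compared. PHLDA3, whose product holds back AKT signalling at the membrane, was highest with a median over the 12 libraries of 74.6 CPM per kb. TNFRSF10B (the TRAIL death receptor DR5) followed at 43.8, TP53I3 (a quinone oxidoreductase) at 42.3, CCNG1 (cyclin G1) at 36.8 and STEAP3 (a metalloreductase) at 29.1 CPM per kb. The library ranges of TNFRSF10B and TP53I3 overlapped. At the lower end FAS stood at 1.15 CPM per kb and TNFRSF10C, a decoy TRAIL receptor, at 0.109 CPM per kb. TNFRSF10C rested on 2 to 29 counts per library.

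**Figure D1:**
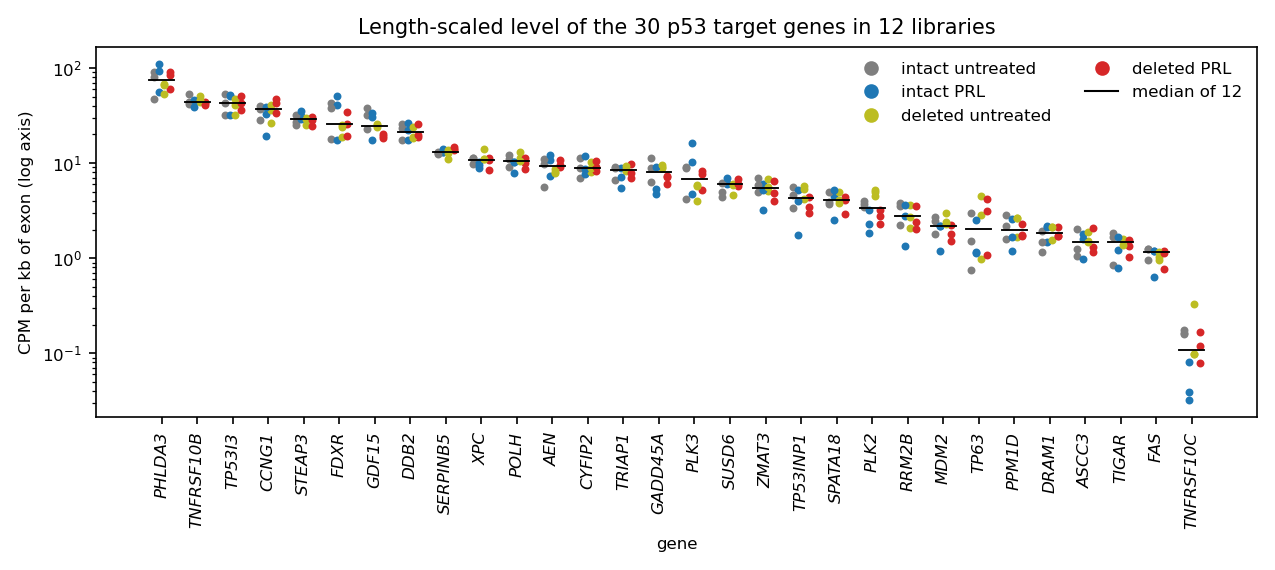
Length-scaled level (CPM per kb of exon, log axis) of each of the 30 p53 target genes in the 12 libraries, coloured by group, with the median of 12 as a line. PHLDA3 lies highest at a median of 74.6 and TNFRSF10C lowest at 0.109.

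After PRL, averaged over both genotypes, PLK2 stood apart from the other members. PLK2 is a Polo-like kinase of centriole duplication and stress checkpoints, and its level was 1.63-fold lower with PRL. None of the 30 passed the edgeR quasi-likelihood test at an adjusted p of 0.05 (0 called, against a background of 0.119% of all genes tested), and 4 had an unadjusted p below 0.05 (background 3.81%). DESeq2 and limma-voom each called 1, which was PLK2. Both also called more genes in all than the 21 of edgeR, as counted in the last section. With a term for the title run in the edgeR fit, PLK2 was also the only member called, against a background of 1.12%, and 11 members had an unadjusted p below 0.05 (background 13.6%). The median log2 fold change of the members was -0.11 beside -0.02 for all genes tested, with 18 of 30 below 0, which is 60% beside 53.9% of all genes. Without intact PRL replicate 2, the library with the fewest detected genes, the members' median was 0.01.

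RNA was taken from bulk cultures, in which fewer cells that express a gene and less RNA per cell cannot be told apart. In the intact untreated libraries PLK2 read 16.4, 17.7 and 18.9 CPM for replicates 1, 2 and 3. With PRL these cells read 11.0, 8.70 and 15.5 CPM. In the deleted genotype PLK2 read 21.4, 25.0 and 23.6 CPM untreated and 15.4, 13.2 and 10.9 CPM with PRL. All 6 PRL libraries therefore lay below all 6 untreated libraries, which was so in this direction for 0.238% of all genes. The averaged log2 fold change of PLK2 was -0.71 ± 0.15 (SE), with a 95% interval from -1.04 to -0.38 (edgeR adjusted p = 0.192). It was -0.71 ± 0.13 with the title-run term (edgeR adjusted p = 0.00997), and there the call held when each library was left out in turn, at adjusted p from 0.00212 to 0.0427. PLK2 was also called without the low-count filter (adjusted p = 0.0317), by DESeq2 (adjusted p = 0.00533) and by limma-voom (adjusted p = 0.0224). Each of these settings also called more genes in all than the main fit. Without the term, leaving out 1 library gave edgeR adjusted p-values from 0.0643 to 0.557.

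By genotype, the PLK2 difference was -0.59 ± 0.22 with the intact and -0.82 ± 0.22 with the deleted I-tail on the log2 scale (edgeR adjusted p = 1 in each). The groups did not overlap in either genotype, which held in this direction for 2.88% of genes with the intact and 4.97% with the deleted I-tail. The difference between these effects was -0.23 ± 0.31, and the interaction was not called (edgeR adjusted p = 1). No gene at all was called for the interaction (background 0%), and DESeq2 and limma-voom also called 0 members. Without the title-run term 0 of 30 members had an unadjusted p below 0.05 for the interaction (background 0.718%).

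**Figure D2:**
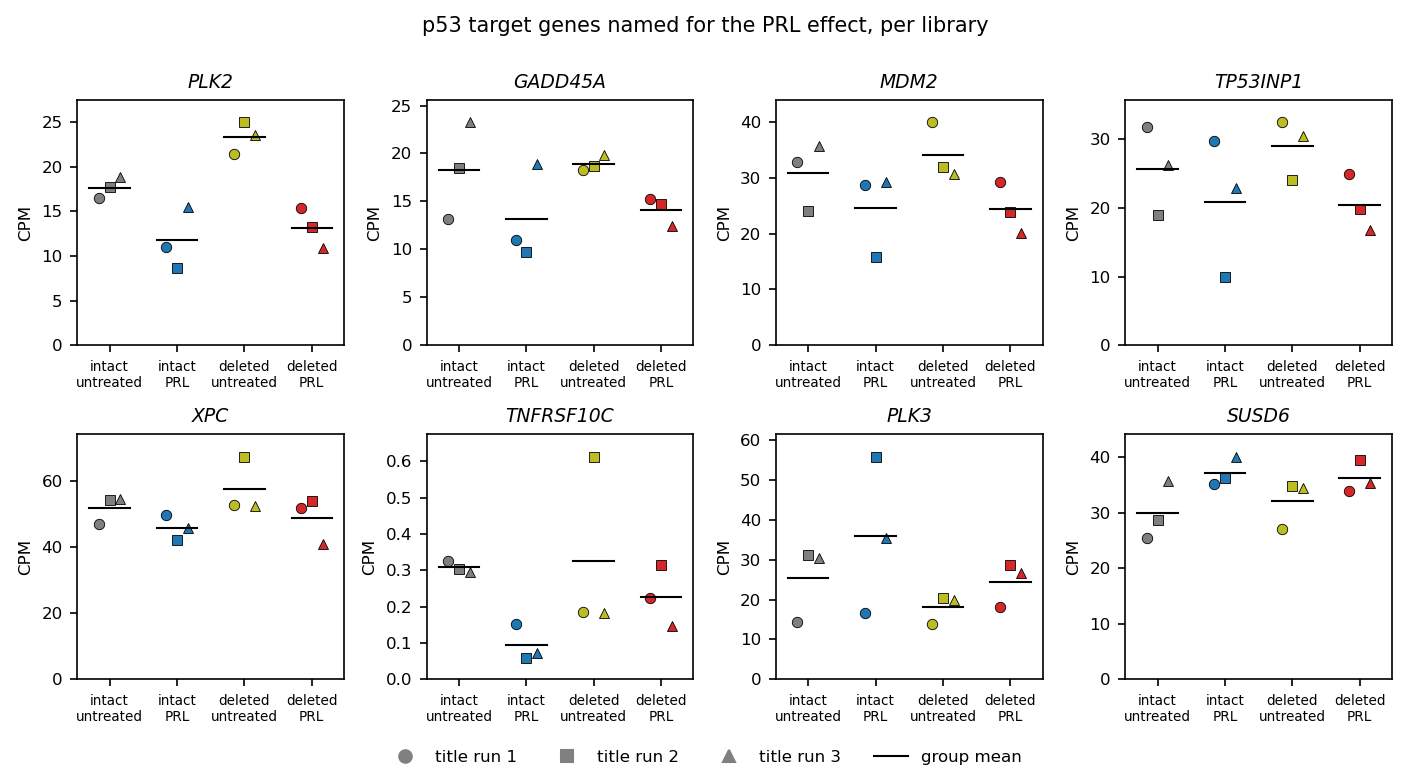
CPM of the 8 members named for the averaged PRL effect, by group, with 1 point per library (shape gives the title run) and a line at the group mean. For PLK2 all PRL libraries, at 8.70 to 15.5 CPM, lie below all untreated ones, at 16.4 to 25.0 CPM, while the other 7 genes overlap between untreated and PRL libraries taken over both genotypes.

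The other growth-arrest genes did not pass the test. GADD45A, whose product binds PCNA and stress kinases to halt the cycle, read 13.2, 18.5 and 23.2 CPM in intact untreated and 11.0, 9.68 and 18.9 CPM in intact PRL libraries. In the deleted genotype GADD45A read 18.2, 18.7 and 19.9 CPM untreated and 15.3, 14.7 and 12.4 CPM with PRL. Its groups overlapped with the intact I-tail but not with the deleted one (background in this direction 4.97%), and the averaged log2 difference was -0.45 ± 0.18 (edgeR adjusted p = 0.98).

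PLK3, a kinase of the same family as PLK2 and a stress-responsive gene, pointed the other way. PLK3 read 14.5, 31.2 and 30.5 CPM in intact untreated, 16.6, 55.9 and 35.4 CPM in intact PRL, 13.8, 20.4 and 20.0 CPM in deleted untreated and 18.1, 28.6 and 26.7 CPM in deleted PRL libraries. Replicate 1 was lowest in every group and intact PRL replicate 2 highest of all. The averaged PRL difference of PLK3 was 0.47 ± 0.27 on the log2 scale (edgeR adjusted p = 0.98), and PLK3 was higher with PRL in 6 of 6 comparisons within a run and genotype. With the title-run term PLK3 was not called on all 12 libraries (edgeR adjusted p = 0.139). Among the leave-outs of that fit PLK3 was called only without intact PRL replicate 1, beside PLK2 (0.54, edgeR adjusted p = 0.034). TRIAP1, a small mitochondrial protein that restrains apoptosis, differed by -0.14 ± 0.16.

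Among the regulators of p53, MDM2 had the most negative averaged PRL difference. MDM2 read 32.8, 24.0 and 35.7 CPM in intact untreated and 28.7, 15.8 and 29.2 CPM in intact PRL libraries, where the groups overlapped. It read 39.9, 32.0 and 30.6 CPM in deleted untreated and 29.3, 23.9 and 20.1 CPM in deleted PRL libraries, where they did not (background in this direction 4.97%). The averaged difference of MDM2 was -0.41 ± 0.18 (edgeR adjusted p = 0.98), and MDM2 was lower with PRL in 6 of 6 within-run comparisons. PPM1D, the WIP1 phosphatase that acts against p53 and its kinases, differed by -0.29 ± 0.21. ZMAT3, a zinc-finger protein that binds RNA, differed by -0.25 ± 0.17 and CCNG1, which recruits a phosphatase to MDM2, by 0.02 ± 0.18. Reads from MDM2 and from CPM, the carboxypeptidase gene that overlaps it on the other strand, cannot be told apart if strand was not used, and that gene averaged a level of 1.23 on the same scale.

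Of the death-receptor and apoptosis genes, none of the 8 passed the test, and their median difference with PRL was -0.04. TNFRSF10C read 0.325, 0.303 and 0.295 CPM in intact untreated and 0.151, 0.0598 and 0.0731 CPM in intact PRL libraries, without overlap (background in this direction 2.88%). In the deleted genotype TNFRSF10C read 0.185, 0.613 and 0.182 CPM untreated and 0.222, 0.314 and 0.146 CPM with PRL, with overlap. Its averaged difference of -1.08 ± 0.50 (edgeR adjusted p = 0.98) was the largest in size among the members and the least precise. A gene on the same strand that shares exon sequence with TNFRSF10C averaged 3.87 CPM, so these few reads are uncertain.

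TP53INP1, a stress protein of cell death and autophagy, read 31.8, 19.0 and 26.2 CPM in intact untreated and 29.7, 9.86 and 22.9 CPM in intact PRL libraries. In the deleted genotype TP53INP1 read 32.5, 24.1 and 30.5 CPM untreated and 24.9, 19.8 and 16.8 CPM with PRL. The groups overlapped in both genotypes, intact PRL replicate 2 was lowest of the 12, and the averaged difference was -0.40 ± 0.23 (edgeR adjusted p = 0.98). With the title-run term TP53INP1 was not called on all 12 libraries (edgeR adjusted p = 0.213). Among the leave-outs of that fit it was called only without deleted PRL replicate 2, together with PLK2 (-0.55, edgeR adjusted p = 0.0484).

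SUSD6 read 25.5, 28.7 and 35.8 CPM in intact untreated and 35.2, 36.3 and 40.1 CPM in intact PRL libraries. In the deleted genotype SUSD6 read 27.0, 34.8 and 34.4 CPM untreated and 33.9, 39.5 and 35.4 CPM with PRL. The averaged difference of SUSD6 was 0.24 ± 0.12 (edgeR adjusted p = 0.98), with overlap in both genotypes. PHLDA3 differed by 0.29 ± 0.20 and AEN, a p53-induced nuclease, by 0.22 ± 0.17. AEN did not overlap between deleted PRL and deleted untreated libraries, where it was higher with PRL (background in this direction 3.29%). FAS, the receptor of FAS ligand, differed by -0.12 ± 0.20, TNFRSF10B by -0.13 ± 0.11 and CYFIP2 by 0.04 ± 0.15. On the other strand ACTA2 overlaps FAS, RHOBTB2 overlaps TNFRSF10B and ADAM19 overlaps CYFIP2. These averaged 37.9, 74.0 and 52.0 CPM, beside a median of 4.89 CPM for FAS. If strand was not used in counting, reads of the shared stretches cannot be told apart.

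The DNA repair genes had 4 of 5 averaged PRL differences below 0 and a median of -0.19, with none past the test. XPC, which recognises lesions in nucleotide excision repair, read 46.9, 54.2 and 54.6 CPM in intact untreated and 49.6, 42.2 and 45.7 CPM in intact PRL libraries. XPC read 52.7, 67.3 and 52.4 CPM in deleted untreated and 51.7, 53.8 and 40.8 CPM in deleted PRL libraries, so that groups overlapped in both genotypes. Its averaged difference was -0.21 ± 0.12 (edgeR adjusted p = 0.98). POLH, a polymerase that copies past ultraviolet lesions, differed by -0.20 ± 0.13. On the other strand LSM3, averaging 13.7 CPM, overlaps XPC and GTPBP2, averaging 63.1 CPM, overlaps POLH, with the same limit on strand. RRM2B, the p53-induced ribonucleotide reductase subunit, differed by -0.20 ± 0.25, ASCC3, a helicase of alkylation repair, by -0.04 ± 0.21, and DDB2, the ultraviolet damage sensor, by 0.04 ± 0.15.

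The metabolic and organelle genes had 4 of 6 differences above 0 and a median of 0.09, again with none past the test. FDXR, the mitochondrial ferredoxin reductase, differed with PRL by 0.18 ± 0.26, DRAM1, a lysosomal protein of autophagy, by 0.15 ± 0.17, TP53I3 by 0.10 ± 0.17 and STEAP3 by 0.08 ± 0.12. TIGAR, which lowers glycolytic flux, differed by -0.22 ± 0.23 and SPATA18, of mitochondrial quality control, by -0.11 ± 0.18. Of the secreted or epithelial members, the cytokine GDF15 differed by -0.27 ± 0.17 and SERPINB5, the serpin maspin, by 0.13 ± 0.10. With the deleted I-tail, GDF15 was lower with PRL without overlap (background 4.97%) and SERPINB5 higher without overlap (background 3.29%).

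**Figure D3:**
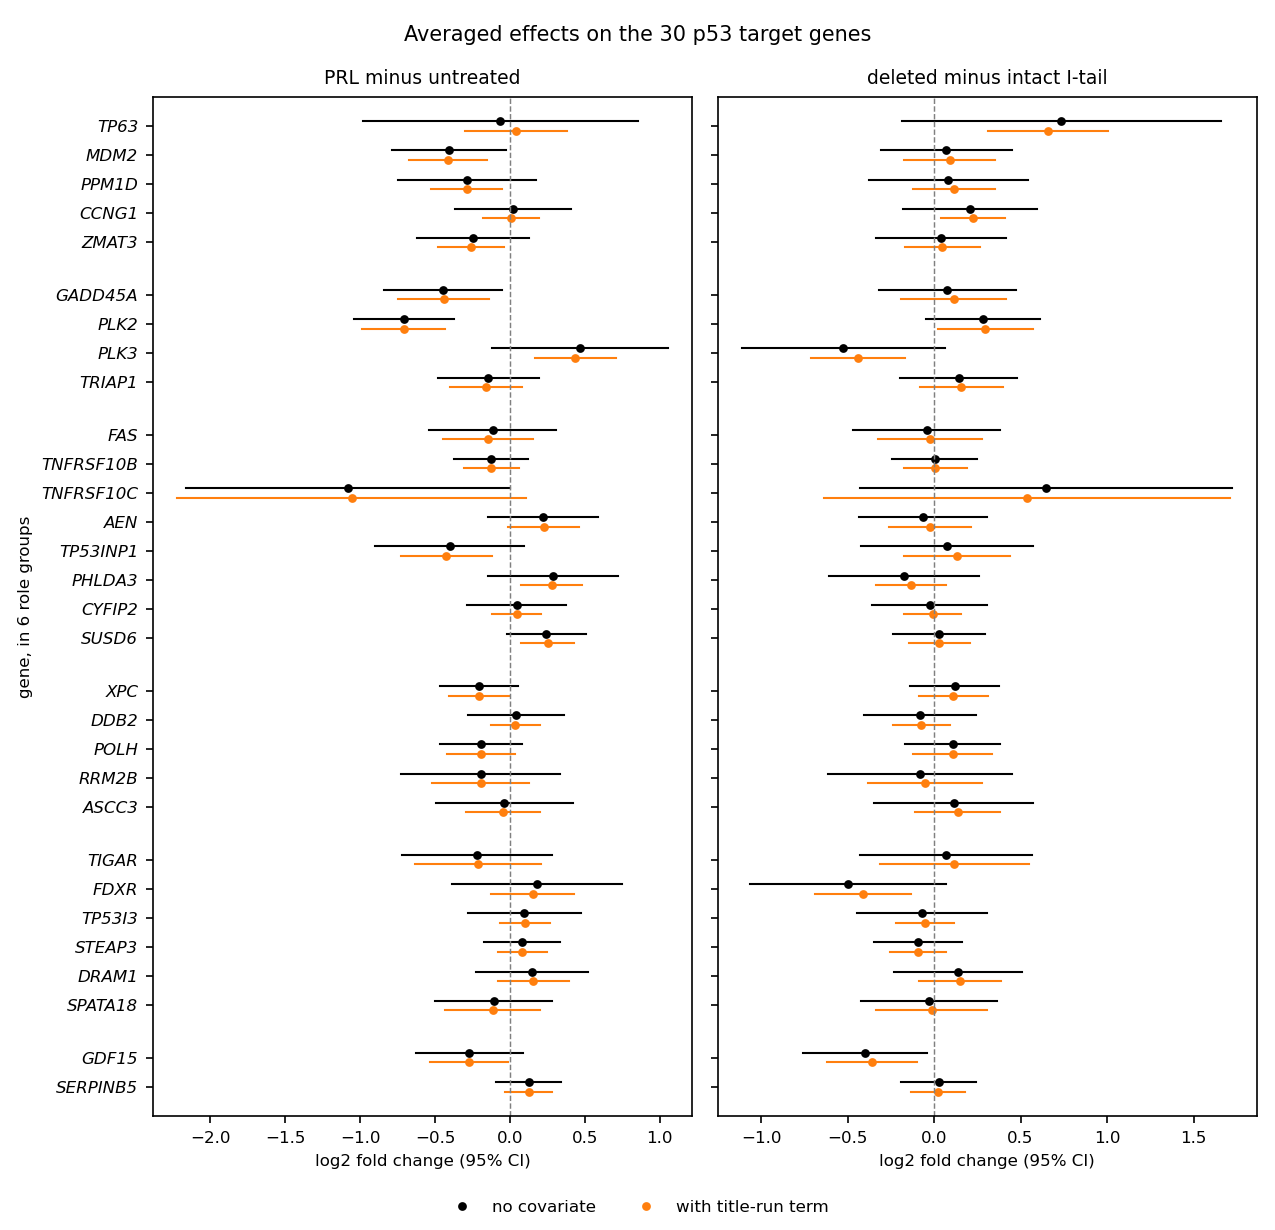
Log2 fold change with 95% interval of each member for PRL against untreated (left) and the deleted against the intact I-tail (right), averaged over the other factor, without a covariate (black) and with the title-run term (orange). For PLK2 the PRL interval lies between -1.04 and -0.38 without the term, and most other intervals include 0.

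The direction within runs was read from the 6 comparisons of a PRL library with the untreated library of its own run and genotype. GADD45A, GDF15, MDM2, PLK2, POLH, TIGAR, TP53INP1 and ZMAT3 were lower with PRL in 6 of 6, which is 8 of 30 members against 6.05% of all genes. AEN, PHLDA3, PLK3 and SUSD6 were higher in 6 of 6, which is 4 of 30 against 8.37% of all genes. Both directions stood side by side among the arrest genes (GADD45A and PLK2 lower, PLK3 higher) and among the apoptosis genes (TP53INP1 lower, AEN, PHLDA3 and SUSD6 higher). For the I-tail deletion, 0 members were lower in 6 of 6 (background 2.99%) and 0 were higher in 6 of 6 (background 4.04%).

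By genotype, 0 members were called for PRL with the intact I-tail (background 0.017%) and 0 with the deleted I-tail (background 0.017%). At an unadjusted p below 0.05 there were 2 members with the intact I-tail (background 2.55%) and 1 with the deleted I-tail (background 1.79%). DESeq2 and limma-voom called 0 members in either.

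For the I-tail deletion itself, averaged over untreated and PRL cells, 0 of 30 members were called by edgeR (background 0.00566%) and 1, GDF15, had an unadjusted p below 0.05 (background 2.28%). With the title-run term 0 were called (background 0.0622%) and 6 had an unadjusted p below 0.05 (background 13.4%), namely TP63, PLK3, FDXR, GDF15, CCNG1 and PLK2. DESeq2 and limma-voom also called 0. The members' median was 0.03 and so was that of all genes. In untreated cells 0 members were called (background 0.00566%) and 0 had an unadjusted p below 0.05 (background 0.837%), and in PRL-treated cells 0 were called (background 0.00566%) and 0 had such a p (background 1.62%).

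GDF15 read 47.9, 66.1 and 78.4 CPM in intact untreated and 36.2, 62.96 and 70.8 CPM in intact PRL libraries. With the deleted I-tail GDF15 read 50.3, 53.4 and 52.0 CPM untreated and 42.2, 40.3 and 38.5 CPM with PRL. Intact replicates 2 and 3 were above all deleted libraries, while intact replicate 1 was not, and the deletion difference was -0.40 ± 0.17 (edgeR adjusted p = 0.991).

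FDXR read 64.5, 155 and 136 CPM in intact untreated, 63.4, 147 and 181 CPM in intact PRL, 67.3, 85.8 and 91.5 CPM in deleted untreated and 70.1, 92.7 and 123 CPM in deleted PRL libraries. Replicate 1 again was low and alike in all groups. The deletion difference of FDXR was -0.50 ± 0.26, and that of PLK3 was -0.52 ± 0.27 (edgeR adjusted p = 0.991 for each). PLK2 differed with the deletion by 0.28 ± 0.15 (edgeR adjusted p = 0.991), and in untreated cells its deleted libraries lay above the intact ones without overlap (background 3.58%).

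The interaction, the PRL effect with the deleted minus that with the intact I-tail, was examined in CCNG1 and DRAM1 besides PLK2. CCNG1 read 116, 87.7 and 123 CPM in intact untreated, 102, 59.7 and 119 CPM in intact PRL, 112, 82.2 and 126 CPM in deleted untreated and 145, 105 and 132 CPM in deleted PRL libraries. Its interaction was 0.47 ± 0.36, or 0.52 ± 0.18 with the title-run term (edgeR unadjusted p = 0.01). In that fit 1 member, CCNG1, had an unadjusted p below 0.05, beside 345 of all 17677 genes, and 0 genes were called. DRAM1 read 7.98, 4.91 and 6.21 CPM in intact untreated, 8.96, 6.16 and 9.12 CPM in intact PRL, 8.79, 6.44 and 8.83 CPM in deleted untreated and 8.89, 7.23 and 7.18 CPM in deleted PRL libraries. Its interaction was -0.39 ± 0.35 (edgeR adjusted p = 1 for both genes), and groups of both genes overlapped.

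**Figure D4:**
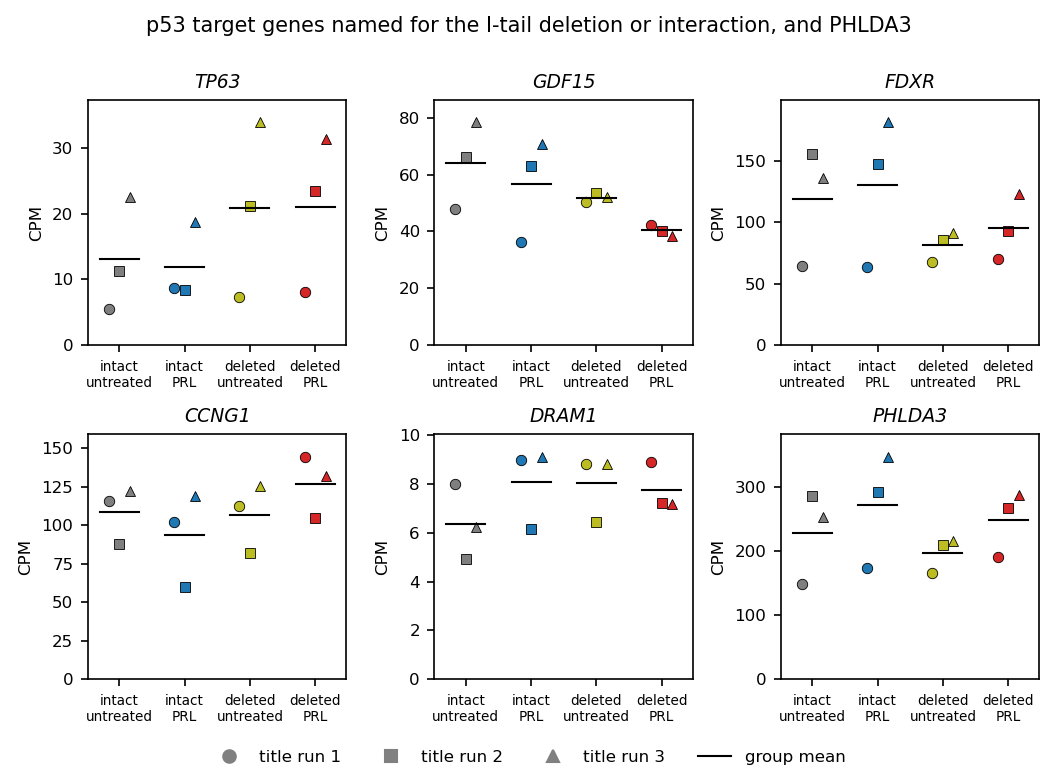
CPM of members named for the I-tail deletion or the interaction, and of PHLDA3, by group, with 1 point per library (shape gives the title run) and a line at the group mean. In TP63, FDXR and PHLDA3 the run 1 library is the lowest or next to lowest in each group, and for GDF15 the 6 intact libraries spread from 36.2 to 78.4 CPM.

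TP63 spanned a 6.09-fold range over the 12 libraries, and it varied with the title run. TP63 read 5.56, 11.3 and 22.5 CPM in intact untreated, 8.64, 8.40 and 18.8 CPM in intact PRL, 7.36, 21.1 and 33.9 CPM in deleted untreated and 8.07, 23.5 and 31.3 CPM in deleted PRL libraries. Its mean was 7.41 CPM in run 1, 16.1 in run 2 and 26.6 in run 3. The basal keratins followed the same runs: KRT5 averaged 363, 1687 and 2678 CPM, KRT14 averaged 15.2, 40.9 and 66.7 CPM, and KRT17 averaged 469, 2434 and 3668 CPM in runs 1, 2 and 3. Among the epithelial markers that are not basal, CDH1, KRT8 and KRT18 were lower in run 1 without overlap, while EPCAM and KRT19 were not. CDH1 averaged 12.7, 35.4 and 50.6 CPM, KRT8 averaged 944, 1564 and 1510 CPM, and KRT18 averaged 224, 445 and 393 CPM. The means of KRT8 and KRT18 did not rise from run 2 to run 3 as that of TP63 did. For EPCAM and KRT19 the run 1 libraries lay within the range of the other runs. What the runs share in culture or handling was not tested. The deletion difference of TP63 was 0.74 ± 0.43 (edgeR adjusted p = 0.991), and with the title-run term it was 0.66 ± 0.16 (edgeR adjusted p = 0.265). TP63 was higher with the deletion in 5 of 6 within-run comparisons.

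**Figure D5:**
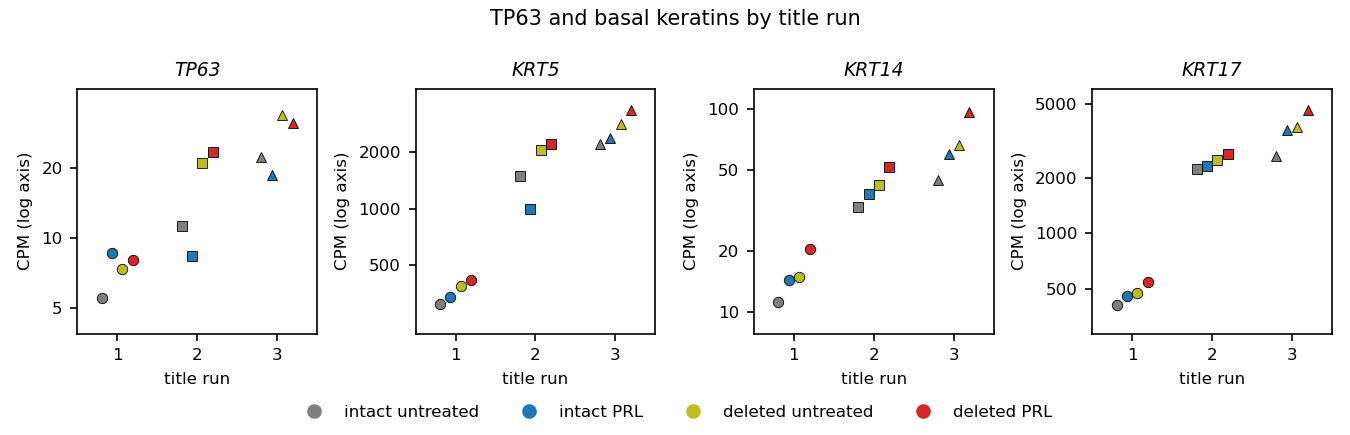
CPM (log axis) of TP63 and of the basal keratins KRT5, KRT14 and KRT17 against the title run, with 1 point per library coloured by group. TP63 averages 7.41, 16.1 and 26.6 CPM in runs 1, 2 and 3, and KRT5 averages 363, 1687 and 2678 CPM.

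Some other members also differed between run 1 and the later runs. Many genes outside the set did so too, so this pattern was not particular to the members. PHLDA3, TP53I3, FDXR, DDB2, CYFIP2 and PLK3 were lower in all run 1 libraries than in all libraries of runs 2 and 3, which is 6 of 30 members against 13.6% of all genes. ZMAT3 and ASCC3 were higher in run 1 without overlap, which is 2 of 30 against 12.8% of all genes. PHLDA3 averaged 169 CPM in run 1 and 275 CPM in run 3, and FDXR averaged 66.3 and 133 CPM.

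Other genes of the pathway were read from lists of p53 and its regulators, further p53 targets, cell-cycle genes that p53 lowers through p21 and the DREAM complex, and p63 targets with basal epithelial genes. Of p53 and its regulators, 17 of 18 could be tested and 0 were called for PRL, with a median of -0.05. The smallest p-values there were those of PPP1R13L, an inhibitor of p53 (0.46 ± 0.26), RCHY1, a ubiquitin ligase for p53 (-0.39 ± 0.23), and TP53BP2 (-0.18 ± 0.14). Of 40 further targets, 0 were called for PRL, 29 were below 0 (72.5%, beside 53.9% of all genes) and the median was -0.09. CDKN1A, which encodes p21, differed by -0.03 ± 0.22.

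With the title-run term, 2 of these 40 targets rose with PRL and 0 fell, beside 167 that rose and 31 that fell among all 17677 genes (background 1.12% called). TNFAIP8, a regulator of cell death and lipid signalling, read 10.1, 5.18 and 8.11 CPM in intact untreated, 14.2, 9.53 and 13.2 CPM in intact PRL, 8.75, 5.62 and 9.08 CPM in deleted untreated and 16.4, 9.91 and 13.3 CPM in deleted PRL libraries. Its difference was 0.72 ± 0.10 with the term (edgeR adjusted p = 0.000779) and 0.71 ± 0.21 without it (edgeR adjusted p = 0.546). SERTAD1, a partner of CDK4, differed by 0.71 ± 0.16 with the term (edgeR adjusted p = 0.0367) and by 0.74 ± 0.24 without it (edgeR adjusted p = 0.801). SESN1, a stress-induced inhibitor of mTORC1, differed by -0.51 ± 0.18 (edgeR adjusted p = 0.957) and did not pass the test with the term either (edgeR adjusted p = 0.0643).

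Of the 18 cell-cycle genes, 0 were called for PRL, but 17 were above 0 and their median was 0.36. The 1 below 0 was 5.56%, beside 53.9% of all genes. With the title-run term 17 were again above 0, with a median of 0.38. By genotype the median was 0.26 with the intact and 0.55 with the deleted I-tail, and the latter comparison does not hold intact PRL replicate 2. Without that library, the only leave-out read for this list, the averaged median was 0.00. MYBL2 differed by 0.91 ± 0.49, FOXM1 by 0.44 ± 0.28 and BIRC5 by 0.48 ± 0.33. For the deletion 15 of the 18 were below 0, beside 44.1% of all genes, with a median of -0.17 and 0 called. With the title-run term 11 of the 18 were below 0, with a median of -0.07. Of the 15 p63 and basal genes, 0 were called for PRL, with a median of 0.03. For the deletion 0 were called, 14 were above 0 and the median was 0.33. The 1 below 0 was 6.67%, beside 44.1% of all genes. With the title-run term 1 of the 15 was called in each comparison (background 1.12% for PRL and 0.0622% for the deletion). This was KRT14, a keratin of basal cells, which rose with PRL by 0.38 ± 0.08 (edgeR adjusted p = 0.0239) and was higher with the deleted I-tail by 0.50 ± 0.08 (edgeR adjusted p = 0.0271). It differed by 0.40 ± 0.46 and 0.53 ± 0.46 without the term (edgeR adjusted p = 0.98 and 0.991).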

How the data were processed

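RNA of 12 MCF10AT libraries, 3 in each of 4 groups, was polyA-selected and sequenced. The authors deposited a table of unnormalised read counts by Ensembl identifier. The submitters' processing notes name FastQC, STAR 2.7.9a, featureCounts of Subread and the GRCh38 build. Neither the gene annotation nor the strand setting of the counting is given in the sources used here. An identifier with empty cells (1) was dropped, and 62696 of the other 62702 had a symbol.

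Groups came from the genotype and treatment labels, and replicate numbers follow accession order, which is also title order, so that replicate n lies in title run n. The labels do not say that these numbers pair samples, and the run was a term only in an alternative fit. The analysis ran in R 4.3.3 with edgeR 4.0.16. After filterByExpr and TMM scaling, all groups were fitted together by quasi-likelihood with robust dispersions, leaving 8 degrees of freedom. The biological coefficient of variation was 0.303, or 0.179 when the title run was a term. For 7 contrasts p-values were adjusted over all 17677 genes (Benjamini-Hochberg) and called below 0.05. Errors are SE unless SD is named. CPM are TMM-scaled, and within-run directions use log CPM with a prior count of 2. Alternatives were RLE, upper-quartile and no composition scaling, other count filters, DESeq2 1.42.0, limma-voom with quality weights (limma 3.58.1), non-robust dispersions, the compared groups alone, the title-run term and leaving out each library. The scripts were tested on simulated data. Depth was 36120808 to 57324865 counts per library, and replicate libraries differed by a chi-square of 51.2 to 212 per degree of freedom, so that none was a repeat of another.

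The members, the gene lists and the rule for named genes were chosen with earlier results of these data known. The rule gave values per library for members called in a fit with or without the title-run term and for those with the smallest p-values in the averaged and interaction contrasts. TP63, and the members beside them in the plots, were added after their values were seen. Exon lengths and overlaps came from GENCODE 29.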

Additional observations from a re-analysis of the deposited data

How the results depend on the processing

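For the averaged PRL effect the number of members called was 0 with RLE, upper-quartile or library-size scaling, the stricter count filter and non-robust dispersions, and 1 with DESeq2, limma-voom, the title-run term or no count filter. That member was PLK2 each time. With each library left out in turn the count stayed at 0 without the term, and with the term it was 1 to 2. In the other 6 contrasts 0 members were called under every alternative. The members' median ranged from -0.17 to 0.0147 for the averaged PRL effect and from -0.20 to 0.0164 for PRL with the intact I-tail when 1 library was left out, and the upper values were those without intact PRL replicate 2. With limma-voom the median was -0.11 for the averaged deletion effect and -0.17 for the deletion in PRL-treated cells, and the cause was not tested. No result changed sign while called. Over all genes, 21 were called for the averaged PRL effect, against 198 with the title-run term, 124 with no count filter, 116 in limma-voom and 91 in DESeq2. Library size alone moved the median of all genes by -0.10 for the averaged PRL effect. TNFRSF10C was removed by the stricter count filter. Log CPM were also taken as deviations from the group mean, and libraries of different groups were compared. On this measure each of the 12 libraries correlated best with a library of its own title run, a hint from the data and not from the labels. Within run 1 the correlations were at least 0.43. In runs 2 and 3 they went down to 0.098 and 0.097, and intact PRL replicate 2 reached 0.301 with a library of another run. The labels give no replicate numbers that pair samples, so the title-run term, with 6 residual degrees of freedom, was the blocked fit, and among the counts of members called it changed only that of the averaged PRL effect. At these depths the least abundant member, TNFRSF10C, was limited by 2 to 29 counts.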
